A study of Mus musculus with 6 samples.

Results

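Retained-intron transcripts are annotated transcripts that keep sequence which other transcripts of the same gene splice out. The transcripts described here are those with the GENCODE M21 type retained_intron whose estimated read counts summed to 30 or more over 6 RNA-seq libraries of mouse fat. By this rule 10885 of the 140137 transcripts matched to M21 were members, out of 21840 with that type, and 3092 of that type were listed at 0 in all 6 libraries. The members came from 5850 of 54356 genes, of which 5728 (97.9%) were protein coding. A gene had 1 member in 3187 cases, 5 or more in 285 cases and at most 15. The rule used the summed counts and not the group labels, but a member at 0 in 1 group passed it through the other group alone. The members just inside it were Smlr1-202 (30.002 reads), Fam129c-205 (30.015) and Txndc11-208 (30.016), and those just outside were Net1-203 (29.998), Gne-207 (29.994) and Naprt-204 (29.987).

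Polyadenylated RNA of epididymal white adipose tissue, the visceral fat pad beside the epididymis, was sequenced from male wild-type C57BL/6N mice of 20 weeks. The libraries labelled ctrl are from mice 5, 6 and 10, and those labelled cold are from mice 7, 12 and 16, with 3 separate animals per group. The labels describe the treatment identically for all 6 samples, as 24 h alone in a cage at 4 °C. General housing was at 22 to 24 °C, and no source used here says how the ctrl mice spent the last day. The comparison of cold with ctrl therefore rests on the treatment label.

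Introns are removed from most pre-mRNAs before export from the nucleus. A polyadenylated transcript that keeps an intron is often held in the nucleus, and one that reaches the cytoplasm usually meets an early stop codon and is a target of nonsense-mediated decay. Genes for splicing factors and for the CLK kinases, which phosphorylate the SR family of splicing factors, are known for introns that are kept in a regulated way, and retention can change with stress and temperature. In white fat, cold exposure is known for lipolysis and, in some depots, for the induction of heat-producing genes.

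The retained sequences that carry the results below are shown 5′ to 3′, with coordinates on GRCm38 as in M21 and sequence from the M21 transcript file. The first set holds the retained-only bases, in capitals with flanking exon in lower case, of the members behind the only calls of the per-gene test (Thoc3-202 and Slc35a5-207) and of a pair of abundant members. Retained-only bases are those in no exon of the gene's transcripts of any other type. Thoc3-202 extends its exon by 22 bases (chr13:54467804-54467825, minus strand), Slc35a5-207 by 15 bases (chr16:45152562-45152576, minus strand), and both stop there, inside a coding intron. Slc1a5-202 keeps a whole coding intron of 71 bases (chr7:16795953-16796023, plus strand). Rsrp1-204 keeps a coding intron of 1302 bases, but all except the first 13 bases (chr4:134925433-134925445, plus strand) also lie in an exon of a processed transcript.
Thoc3-202: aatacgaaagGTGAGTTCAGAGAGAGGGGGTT
Slc35a5-207: ataaagaaagGTAATTGCTAATATT
Slc1a5-202: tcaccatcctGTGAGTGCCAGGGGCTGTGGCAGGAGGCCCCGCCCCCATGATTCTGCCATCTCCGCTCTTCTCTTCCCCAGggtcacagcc
Rsrp1-204: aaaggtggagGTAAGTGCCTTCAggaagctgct

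Fabp4-202 keeps all 3 introns of Fabp4, the fatty acid binding protein of fat cells. Each site is shown as 10 exon bases and 20 intron bases, with the first 6 and the last 2 intron bases in capitals. The introns span 2316 bases (chr3:10206123-10208438), 607 bases (chr3:10205343-10205949) and 670 bases (chr3:10204571-10205240), all on the minus strand.
Fabp4 intron 1, 5′ site: aaagaagtggGTGAGTgctgtgggggtcgg
Fabp4 intron 1, 3′ site: cgttctctttctccctgtAGgagtgggctt
Fabp4 intron 2, 5′ site: gaaggtgaagGTGAGGaacaaggagctgat
Fabp4 intron 2, 3′ site: tcttttcactgtgcccacAGagcatcataa
Fabp4 intron 3, 5′ site: gctggtggtgGTGAGTtacgctgcatactc
Fabp4 intron 3, 3′ site: aattttgtgcctgtgtctAGgaatgtgtta

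The paralogous kinase genes Clk1 and Clk4 both have members that keep introns 3 and 4. In Clk1-204 these are chr1:58420212-58421082 and chr1:58419734-58420120 on the minus strand, and in Clk4-213 they are chr11:51272023-51273077 and chr11:51273169-51273559 on the plus strand. The 5′ site of intron 4 matched in 29 of 30 bases between the paralogs, including all 20 intron bases. The 5′ site of intron 3 matched in 17 of 30.
Clk1 intron 3, 5′ site: ttcacacgggGTATGAgtgccttttaaacg
Clk4 intron 3, 5′ site: gtcgcattcgGTATGAgtggtttgttttta
Clk1 intron 4, 5′ site: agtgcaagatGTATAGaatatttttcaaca
Clk4 intron 4, 5′ site: agagcaagatGTATAGaatatttttcaaca

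Clk1-204 also keeps the 87 bases of intron 6 (chr1:58417180-58417266, minus strand), shown as an example of a stop codon inside a kept intron. The first stop codon in the frame of the coding exon before intron 6, in capitals, begins at base 2 of the intron. Intron 3, which the same member keeps further upstream, already holds a stop codon in frame that begins at its base 4.
Clk1 intron 6: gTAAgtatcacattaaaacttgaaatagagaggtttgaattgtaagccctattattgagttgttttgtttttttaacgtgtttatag

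Of all 6660 distinct introns kept whole by members, 98.1% began with GT and ended with AG, 84 (1.26%) had GC and AG, and 8 had AT and AC. The first 6 bases read GTGAGT in 14.5% and GTAAGT in 8.96%, counted on the transcribed strand at the intron start. The same shares over introns that are not kept were not computed, because their sequence is not in the transcript file. The 6278 kept introns that belong to coding transcripts had a median length of 273.5 bases, against 1262 bases for the 82460 introns of coding transcripts of the parent genes that no member keeps. An intron under 150 bases made up 31.1% of the kept and 11.2% of the other introns. Of 5844 kept introns between coding exons, 5194 (88.9%) held a stop codon in the frame of the preceding exon, with the median first stop at base 37, and 169 (2.89%) had no stop and a length that is a multiple of 3. These are features of the annotation, described over the members without a test.

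The libraries held 19735167 to 28608052 reads, where a read is 1 Salmon estimated count. Ctrl 10 was the shallowest and cold 16 the deepest. Between 10318 and 10557 members had at least 1 read in a library. Marker genes fixed for other cell types differed between libraries. The 18 measured genes of motile cilia summed to 14.2 to 46.7 CPM (counts scaled to library size) in ctrl and 95 to 273 CPM in cold, and 20 epithelial genes to 24.0 to 78.8 and 219 to 387 CPM. In both lists ctrl 5 was the highest ctrl library and cold 7 the lowest cold library, and no listed gene was at 0 throughout. Epididymis and seminal vesicle genes summed to 149 CPM in ctrl 10, 189 CPM in cold 7 and 0.937 to 2.85 CPM in the other libraries. Mesothelium genes had 305, 134 and 341 CPM in ctrl and 302, 82.5 and 91.0 CPM in cold. Stromal progenitor genes had 3812, 2761 and 3917 CPM in ctrl and 4842, 2775 and 2734 CPM in cold. The 10 adipocyte markers summed to 38229.8 to 43894 CPM in every library, and 10 nuclear-retained noncoding RNAs to 5430.1 to 6648 CPM in ctrl and 4734 to 5246 CPM in cold. In bulk tissue, fewer cells of a type and less RNA per cell cannot be told apart.

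The share of reads on retained-intron transcripts did not separate the groups. Members took 7.72, 7.30 and 7.61% of the reads of their parent genes in ctrl 5, ctrl 6 and ctrl 10, and 6.84, 7.74 and 7.90% in cold 7, cold 12 and cold 16. The cold libraries lay on both sides of the ctrl libraries, with cold 7 the lowest and cold 16 the highest of all. The means were 7.54 ± 0.22% (SD, n = 3) and 7.49 ± 0.57% (SD, n = 3), a difference of -0.048 percentage points (exact permutation test, two-sided, p = 1, where 3 against 3 cannot go below 0.1). Without cold 7 the difference was 0.28 points, without ctrl 5 it was 0.041 points, and both have the opposite sign. As a share of the whole library, members took 3.82 ± 0.12% in ctrl and 3.79 ± 0.26% in cold (SD, n = 3). By TPM, which weights a transcript by the inverse of its length, the share of the parent genes was 11.9 ± 0.32% in ctrl and 11.3 ± 0.73% in cold (SD, n = 3; exact permutation p = 0.3).

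**Figure D1:**
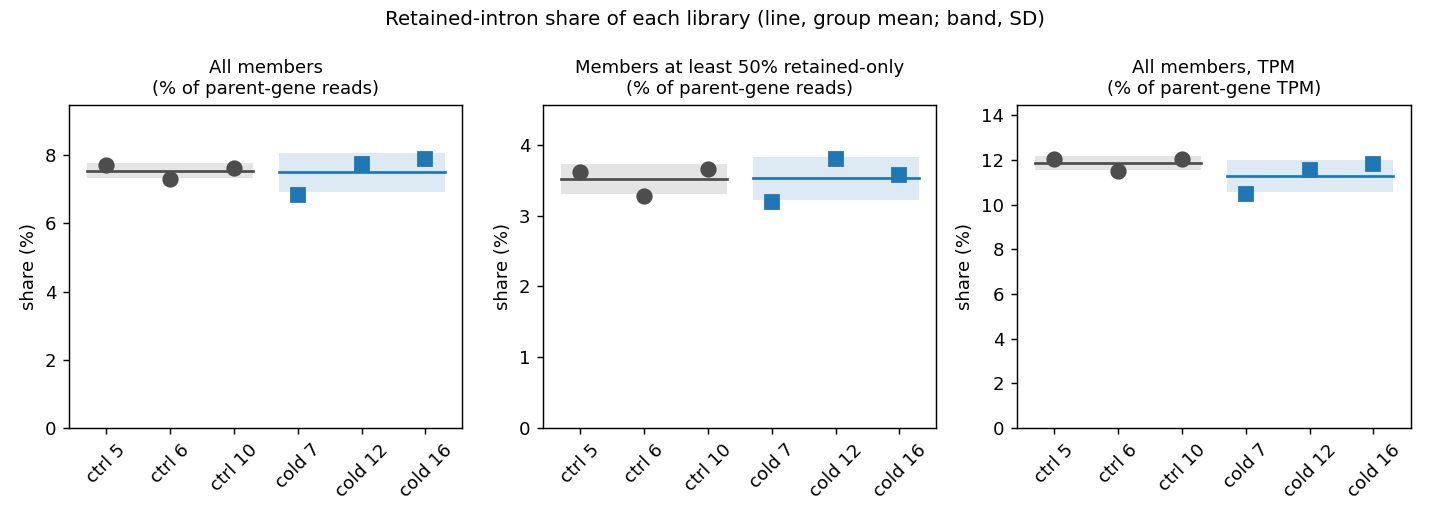
Share of parent-gene reads on retained-intron transcripts in each library (percent, y axis), for all members, for members at least 50% retained-only, and by TPM; circles are ctrl, squares are cold, lines are group means and bands are SD over 3 libraries. In each panel cold 7 is the lowest library and the group bands overlap.

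How much of a member was retained-only sequence varied widely. A complete intron lay inside 4575 members (42.0%), which held 52.8% of member reads. Another 6248 (57.4%) held retained-only bases without a complete intron, with 46.5% of reads. Whether those bases lie within an intron of another transcript was not checked. The remaining 62 had neither. Retained-only bases overlapped another gene on the same strand in 251 members and on the other strand in 542. Retained-only bases made up 50% or more of the length of 4134 members, which held 26.5% of member reads. At the other end, 1108 members had some retained-only bases but under 10% of their length, and these held 25.5% of member reads. No base of 1107 members was unique within the gene, so that sequence alone does not set those members apart from overlapping transcripts, apart from splice junctions. Over members with at least 300 reads, the median coefficient of variation of the share was 18.2% in ctrl and 22.4% in cold for the members under 10% retained-only, and 13.8% and 14.9% for those at 50% or more. Reads on a member are thus not all reads from an intron, which bears on every share given here.

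**Figure D2:**
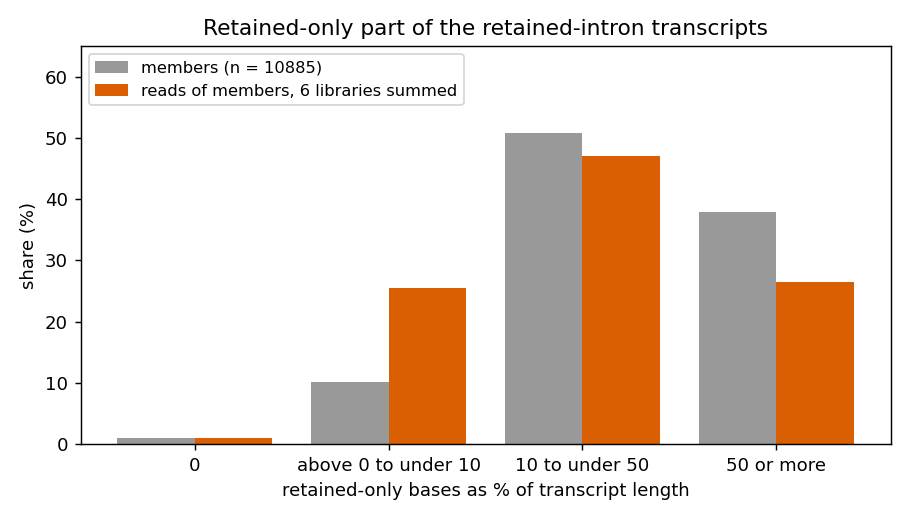
Members (grey) and their reads summed over 6 libraries (orange), in percent of all members or of all member reads (y axis), by the retained-only part of the transcript length (x axis). Members above 0 and under 10% are 10.2% of the transcripts and 25.5% of the reads, while members at 50% or more are 38.0% of the transcripts and 26.5% of the reads.

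Restricted to the 4134 members that are at least 50% retained-only, the share of parent-gene reads was 3.61, 3.27 and 3.66% in ctrl 5, ctrl 6 and ctrl 10, and 3.19, 3.80 and 3.58% in cold 7, cold 12 and cold 16. The groups overlapped again, at 3.51 ± 0.21% and 3.53 ± 0.31% (SD, n = 3; exact permutation p = 1).

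The parent genes differed far more from each other than between groups. Over the 5570 parent genes with at least 300 reads, the median gene put 5.43% of its reads on members in ctrl and 5.45% in cold. The middle 50% of genes ran from 1.91 to 15.3% in ctrl and from 1.96 to 15.4% in cold. In 233 genes members took over 50% of the reads in both groups, and in 629 under 1% in both. The group means lay within 1 percentage point of each other in 3226 genes (57.9%), were over 5 points higher in cold in 237 and over 5 points lower in 257. The median SD within a group was 1.14 points in ctrl and 1.20 points in cold. Cold 7 had the lowest share of the 6 libraries in 1369 of these genes (24.6%), and ctrl 10 the highest in 1167, with cold 16 close by in 1133 (20.3%).

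**Figure D3:**
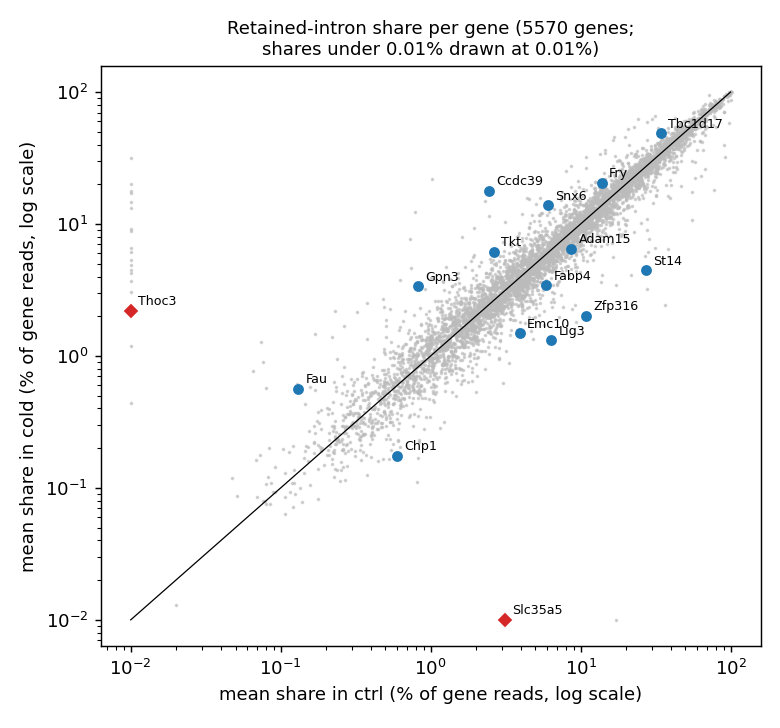
Mean share of gene reads on members in ctrl (x axis) and cold (y axis), both in percent on log scales, for 5570 parent genes (grey); the line marks equal shares, red diamonds are the 2 genes called and blue circles the other genes named by the smallest p. Most points lie along the line, and the called genes sit at the edges because 1 group is at 0.

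Per gene, the question was whether the members' share of the gene changed with the label. Of the 4881 parent genes tested, the share was called higher in cold in 1 (Thoc3) and lower in 1 (Slc35a5). Over all 16085 classes of transcripts tested, 0.0373% were called higher and 0.0249% lower, and 0.0622% in either direction, and 1 of 4881 in each direction is a share of the same order or below. The test was edgeR's diffSpliceDGE with Benjamini-Hochberg adjustment, and a call is an adjusted p under 0.05. An unadjusted p under 0.05 was reached by 64 parent genes, against 1.65% of all classes. The 3 cold libraries all lay above the ctrl libraries in 241 of the tested genes and all below in 310, beside 5.57% and 5.77% over all classes. With members restricted to those at least 50% retained-only, 0 of 2449 genes were called by diffSpliceDGE and 11 had an unadjusted p under 0.05. Of all 17216 classes in that fit, 9 were called and 295 had an unadjusted p under 0.05.

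Thoc3 encodes a subunit of the THO complex, which couples transcription to mRNA export. Its only member, Thoc3-202, had 0 reads in all ctrl libraries and 25.4, 28.6 and 28.2 reads in cold 7, cold 12 and cold 16. That is 2.22, 2.42 and 1.99% of the gene's reads in cold, while 0 of the ctrl reads of the gene allows a share of up to 0.0974%. Against that floor of 3 reads over the ctrl group, the share was at least 22.5-fold higher in cold (adjusted p = 0.0041 by diffSpliceDGE). The level of the gene was 46.5 ± 3.76 CPM in ctrl and 48.7 ± 1.98 CPM in cold (SD, n = 3). The 22 retained-only bases shown above are also its only bases that no other transcript of the gene holds.

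Slc35a5, a member of the nucleotide sugar transporter family, showed the opposite. Slc35a5-207 had 13.3, 16.7 and 13.9 reads in ctrl 5, ctrl 6 and ctrl 10, or 2.84, 3.48 and 3.04% of the gene, and 0 reads in every cold library, where up to 0.177% is allowed. The share was at least 17.6-fold lower in cold (adjusted p = 0.0050 by diffSpliceDGE). Tested as a single transcript on the same reads, Slc35a5-207 had a usage adjusted p of 0.61 by diffSpliceDGE. Its level adjusted p was 0.23 by edgeR. For the share of the gene, the adjusted p was 0.056 without ctrl 6 and 0.055 without cold 16. The gene itself was at 21.4 ± 2.07 CPM in ctrl and 21.9 ± 1.60 CPM in cold (SD, n = 3), and the 15 retained-only bases are all that is unique to the member.

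Because under 5 genes were called in each direction, the genes with the smallest p are described as values, and none of them passed the adjustment. Fabp4 had the largest number of reads among them. Fabp4-202 held 6.79, 4.42 and 6.45% of Fabp4 reads in ctrl 5, ctrl 6 and ctrl 10 and 3.38, 3.86 and 3.04% in cold 7, cold 12 and cold 16. All cold libraries lay below all ctrl libraries, with ctrl 6 nearest to them. The log2 ratio of shares was -0.77 (SE 0.15, adjusted p = 0.28 by diffSpliceDGE), and without ctrl 6 it was -0.95 with an adjusted p of 0.040. Leaving out any other single library gave an adjusted p of 0.39 to 0.76 by the same test. By TPM, the share was 1.09% in ctrl and 0.615% in cold. The gene's level was 11937.5 ± 1077 CPM in ctrl and 14867 ± 1325 CPM in cold (SD, n = 3; edgeR log2 difference 0.32, adjusted p = 0.23). Fabp4-202 is 84.9% retained-only.

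Zfp316, a zinc finger protein gene, had 15.9, 8.13 and 8.57% of its reads on Zfp316-203 in the ctrl libraries and 1.37, 2.14 and 2.53% in the cold libraries (log2 -2.38, SE 0.39, adjusted p = 0.28). The cold libraries were all lower, and in ctrl the value of ctrl 5 stood above the other two. Chp1, which encodes a calcineurin-like calcium binding protein, had 0.557, 0.451 and 0.796% in ctrl and 0.259, 0.181 and 0.0845% in cold. Lig3, the gene of DNA ligase III, had 9.22, 3.89 and 5.98% in ctrl and 0.519, 2.20 and 1.23% in cold. Emc10, a subunit gene of the membrane complex that inserts proteins at the endoplasmic reticulum, had 6.15, 2.85 and 2.78% in ctrl and 0.978, 2.08 and 1.39% in cold. Adam15, which encodes a membrane metalloprotease, had 8.40, 8.48 and 9.15% against 5.32, 7.07 and 7.17%. In each of these genes the groups did not overlap, and the adjusted p was 0.99 for Chp1 and 1 for Lig3, Emc10 and Adam15. For Adam15 the log2 ratio of -0.42 was -0.24 with only members at least 50% retained-only.

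St14 encodes the epithelial protease matriptase and stands in the epithelial marker list. Its member St14-206 had 11.9, 14.9 and 5.13 reads in ctrl and 4.07, 10.5 and 20.4 reads in cold, with overlapping groups. The gene rose from 1.83 ± 0.83 to 9.41 ± 3.41 CPM (SD, n = 3; edgeR log2 2.35, adjusted p = 0.036). The share was 18.1, 39.3 and 24.3% in ctrl and 3.20, 3.44 and 6.71% in cold (adjusted p = 1). The summed epithelial markers were higher in the same libraries, with 10 of 18 tested genes called higher, beside 2.32% of all genes. Without ctrl 6, ctrl 10 or cold 12, edgeR called 0 of all genes. The part of these markers in the share was not tested.

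Among the genes whose share was higher in cold, Tkt, which encodes the pentose phosphate enzyme transketolase, had the smallest p after Thoc3. Its 4 members took 2.52, 2.74 and 2.61% in ctrl 5, ctrl 6 and ctrl 10 and 7.94, 5.14 and 5.39% in cold 7, cold 12 and cold 16 (log2 1.24, SE 0.28, adjusted p = 0.38). The ctrl libraries were close together and all cold libraries lay above them. With only members at least 50% retained-only the log2 ratio was 0.16 (adjusted p = 1). Of the members, Tkt-208 had 285, 190 and 101 reads in ctrl and 1063, 362 and 623 in cold, and Tkt-206 had 130, 137 and 136 in ctrl and 182, 317 and 587 in cold. Cold 7 was the highest library for Tkt-208 and the lowest cold library for Tkt-206.

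Fry, whose product binds microtubules, had 12.9, 15.6 and 12.9% of its reads on 7 members in ctrl and 18.2, 18.1 and 25.5% in cold (log2 0.59, SE 0.14, adjusted p = 0.73, and log2 0.33 with only members at least 50% retained-only). The gene fell from 244 ± 23.0 to 177 ± 2.49 CPM (SD, n = 3; edgeR log2 -0.47, adjusted p = 0.035). Tbc1d17, a Rab GTPase-activating protein gene, had 33.6, 32.2 and 37.8% in ctrl and 42.9, 45.5 and 57.8% in cold (adjusted p = 1). Snx6, which encodes a sorting nexin of the retromer, had 7.49, 6.23 and 4.41% in ctrl and 9.19, 18.2 and 14.3% in cold (adjusted p = 1). Gpn3, a GTPase gene of RNA polymerase II import, had 1.79, 0.667 and 0% in ctrl and 2.53, 4.56 and 3.04% in cold. In Fry, Tbc1d17, Snx6 and Gpn3 every cold library lay above every ctrl library. Fau, which encodes a ribosomal protein fused to a ubiquitin-like protein, had 0.0659, 0.210 and 0.117% in ctrl and 0.337, 1.21 and 0.141% in cold, and its groups overlapped.

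Ccdc39, a gene for the assembly of motile cilia, is in the cilium marker list. The gene rose from 2.89 ± 0.75 to 9.33 ± 3.12 CPM (SD, n = 3; edgeR log2 1.69, adjusted p = 0.036), and its members took 4.51, 0 and 2.90% in ctrl and 14, 22.2 and 17.5% in cold (adjusted p = 1). All cold libraries were higher, on 142 member reads in all. The summed cilium markers were higher in the same 3 cold libraries, with 5 of the 18 genes called higher, and their part in this share was not tested.

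**Figure D4:**
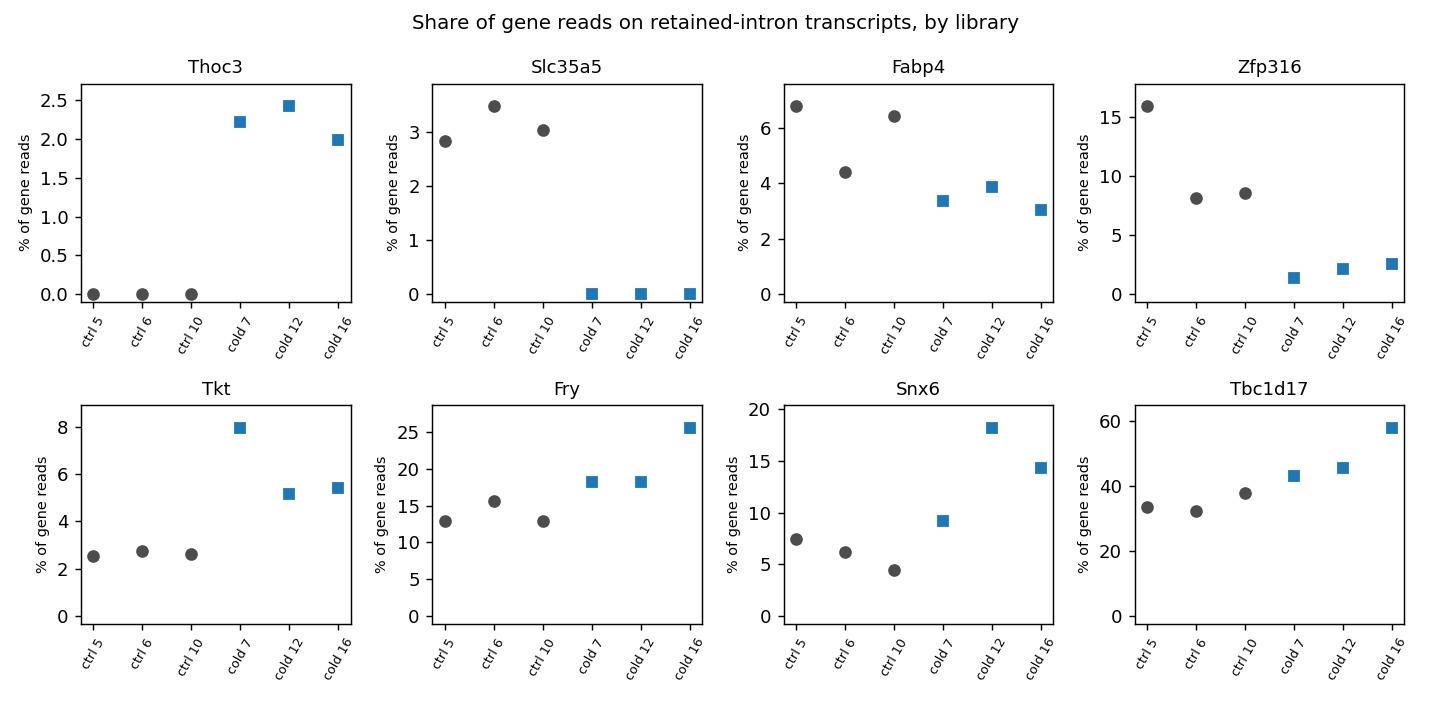
Share of gene reads on members (percent, y axis) in each library (x axis) for 8 genes; circles are ctrl and squares are cold. Thoc3 and Slc35a5 are at 0 in 1 group, and in the other 6 genes the groups do not overlap but the adjusted p is 0.28 or more.

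Tested as single transcripts, 8368 members gave 4 calls of higher usage and 1 of lower usage (edgeR diffSpliceDGE, Benjamini-Hochberg), beside 0.171% and 0.0967% (0.267% in either direction) of all 35158 transcripts tested. An unadjusted p under 0.05 was reached by 69 members, beside 1.49% of all. In counts simulated at the spread of these libraries most calls of this test were false. All 5 called members were at 0 reads in 1 group, so they passed the read threshold and the count filter through the other group alone. The higher ones were Thoc3-202, Rabl2-204, Rpl12-202 and Hdgfl2-203, and the lower one was Gnai2-206. Rabl2-204, from a GTPase gene of cilia, had 28.5, 36.1 and 78.1 reads in cold (at least 22.8-fold higher, adjusted p = 0.000997). Rpl12-202, from a ribosomal protein gene, had 27.3, 23.9 and 16.8 reads (at least 17.7-fold higher, adjusted p = 0.0018). The retained-only bases of Rpl12-202 overlap another gene on the same strand, Snora65. Hdgfl2-203, from a chromatin-binding protein gene, had 12.9, 16.6 and 30.7 reads (at least 21.8-fold higher, adjusted p = 0.010). Gnai2-206, from the gene of an inhibitory G protein subunit, had 21.4, 19.1 and 16.2 reads in ctrl (at least 19.6-fold lower in cold, adjusted p = 0.0017). Apart from Thoc3-202, these members have no base of their own. At the level of the whole gene, members took 83.1, 88.5 and 84.0% of Hdgfl2 reads in ctrl and 79.5, 74.9 and 77% in cold, the direction opposite to that of Hdgfl2-203 (adjusted p = 1). The call of Hdgfl2-203 was lost without any 1 of the 6 libraries, that of Rpl12-202 without any 1 of the 3 ctrl libraries and that of Gnai2-206 without any 1 of the 3 cold libraries, while Rabl2-204 and Thoc3-202 kept theirs. With limma's diffSplice 0 members were called, and 256 had an unadjusted p under 0.05, beside 6.16% of all 35158 transcripts.

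A pattern of 0 reads in 1 group and at least 10 in every library of the other was found in 15 members, 12 at 0 in ctrl and 3 at 0 in cold. These were 0.110% and 0.0276% of members, beside 0.277% and 0.0948% of all 52756 transcripts with at least 30 reads. Of these 15, 5 had no unique base and 9 had under 100. Those with over 100 unique bases were Cfap65-203, Fermt1-202, Xrra1-205, Pidd1-206, Dtnb-206 and Irx2-202, all at 0 in ctrl. Pidd1-206, from a gene of the p53 response with 290 unique bases, had 37.7, 121 and 22.0 reads in cold (at least 40.2-fold higher share, usage adjusted p = 0.86 by diffSpliceDGE). Dtnb-206, from the dystrobrevin beta gene with 181 unique bases, had 10.2, 16.8 and 20.7 reads (at least 11.1-fold higher). Cfap65-203, from a gene of sperm and cilia, had 28.3, 46.3 and 26.4 reads, and its share was at least 2.19-fold higher, where 0 of the ctrl reads of Cfap65 allows up to 2.56%. The gene Cfap65 itself was at 1.66 ± 2.03 CPM in ctrl and 23.0 ± 10.6 CPM in cold, Fermt1 at 0.953 ± 1.40 and 15 ± 7.92 CPM, Irx2 at 0.399 ± 0.442 and 4.75 ± 2.38 CPM, and Xrra1 at 0.361 ± 0.0930 and 1.88 ± 0.756 CPM (SD, n = 3). Of these 4 genes Xrra1 passed the edgeR level test (adjusted p = 0.036). The usage adjusted p by diffSpliceDGE was 1 for Cfap65-203, Fermt1-202 and Irx2-202 and 0.44 for Xrra1-205. The summed cilium and epithelial markers were higher in the same cold libraries, and their part in these reads was not tested.

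At the level of reads, 0 of 8456 members tested were called (edgeR quasi-likelihood test, Benjamini-Hochberg), beside 0% of all 42984 transcripts, and 341 members had an unadjusted p under 0.05, beside 8.15% of all. The smallest adjusted p among members was 0.22. With DESeq2, 53 members were called higher and 15 lower, beside 2.7% of all transcripts. The other 2429 members did not pass the count filter. With 3 libraries a group, a member that missed the threshold is not shown to be unchanged.

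The parent genes gave more calls. Of 5822 tested, 83 were higher in cold and 35 lower (edgeR quasi-likelihood test, Benjamini-Hochberg), beside 2.32% and 0.566% of all 17852 genes (2.89% in either direction, and 7.51% by DESeq2, which called 234 parents higher and 119 lower). Without ctrl 6, ctrl 10 or cold 12, edgeR called 0 parent genes, and 934, 818 and 796 had an unadjusted p under 0.05, beside 16.5, 15.2 and 14% of all genes. Without cold 16 it called 1 higher and 0 lower, beside 0.0109% and 0.00544% of all genes. Without cold 7 it called 197 and 56, beside 5.03% and 0.873%, and without ctrl 5 it called 119 and 14, beside 3.5% and 0.254%. By edgeR none of the members of the called genes passed the level test (29 of 65 in the raised and 12 of 59 in the lowered genes had an unadjusted p under 0.05), and their reads are part of the gene counts that chose the genes. The median log2 difference was 1.78 over the 83 raised genes and 0.94 over the 65 members of them that were tested, of which 62 lay above 0. It was -0.44 over the 35 lowered genes and -0.35 over their 59 members tested, of which 46 lay below 0. The medians of genes and of members are not over matched sets, because only members that passed the count filter were tested. The pooled share in the raised genes was 8.42, 8.17 and 8.59% in ctrl and 8.92, 8.59 and 8.64% in cold, with overlap. Per gene, the median log2 ratio of shares was -0.16 over the 52 raised genes tested, with 19 above 0 and 33 below. In the lowered genes it was 8.61, 8.83 and 8.92% in ctrl and 9.17, 9.47 and 11.2% in cold, where every cold library was above every ctrl library. Per gene, the median was 0.03 over 33 lowered genes, with 18 above 0 and 15 below. These genes were chosen by their level in the same libraries, so the shares are a description.

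The most abundant member was Car3-202, from the gene of carbonic anhydrase III, an abundant enzyme of fat and muscle. It had 140364 reads over the 6 libraries, 6.46 ± 0.30% of the gene in ctrl and 6.39 ± 0.51% in cold (SD, n = 3). Slc1a5-202, which keeps the 71-base intron shown above in the gene of a glutamine transporter, held 23.6, 18.9 and 27.0% of its gene in ctrl and 19.0, 22.4 and 24.2% in cold, with overlapping groups. Itm2b-202, from a transmembrane protein gene, held 22.7 ± 1.13% in ctrl and 21.1 ± 0.84% in cold (SD, n = 3). Rsrp1-204, from the gene of an arginine- and serine-rich protein, held 89.8, 90.2 and 87.2% in ctrl and 85.7, 90.9 and 89.3% in cold, and Srsf5-212, from the gene of an SR splicing factor, 63.2, 61.2 and 57.4% and 61.7, 62.6 and 60.6%. In Rsrp1 and Srsf5 the retained-intron transcript held most of the gene's estimated reads in all 6 mice. By TPM, Rsrp1-204 held 79.7% in ctrl and 77.4% in cold, and Srsf5-212 held 42.4 and 42.8%. Rsrp1-204 has 13 bases that no other transcript of its gene holds, and Srsf5-212 has 0. Nnat-204, from the imprinted gene of the membrane protein neuronatin, had 24.6, 24.9 and 22.5% in ctrl and 21.2, 16.5 and 14.7% in cold. All cold libraries were lower for Nnat-204 (usage log2 -0.44, SE 0.19, unadjusted p = 0.023, adjusted p = 1 by diffSpliceDGE). It keeps a coding intron of 187 bases (chr2:157560261-157560447, plus strand).

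Gm43305-201 was the third most abundant member, with 86976 reads, and held 99.4 to 99.7% of the reads of Gm43305 in every library. Gm43305 is a predicted gene of the processed transcript type (chr14:54292443-54297456, minus strand), so this member stands for the gene and its share carries no information on splicing. Its reads were 9632, 4991 and 4294 in ctrl 5, ctrl 6 and ctrl 10 and 12047, 27547 and 28465 in cold 7, cold 12 and cold 16. Every cold library was higher, and cold 7 was nearest to ctrl 5. The gene was at 282 ± 102 CPM in ctrl and 871 ± 299.6 CPM in cold (SD, n = 3; edgeR log2 1.63, SE 0.37, adjusted p = 0.085). The cilium and epithelial markers showed the same order of ctrl 5 highest in ctrl and cold 7 lowest in cold, and their part in this value was not tested. The nearest gene, Olfr49, lies 7504 bases away and had under 1 CPM in every library.

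Some long members varied more within a group than between groups. Acacb-204, from the gene of a mitochondrial acetyl-CoA carboxylase, held 58.1, 81.8 and 48.7% of its gene in ctrl 5, ctrl 6 and ctrl 10 and 46.0, 79.8 and 95.8% in cold 7, cold 12 and cold 16. Pxdn-207, from the gene of the collagen cross-linking enzyme peroxidasin, held 73.1, 82.6 and 64.4% in ctrl and 68.1, 77.1 and 94.3% in cold. The members of Fn1, the fibronectin gene, took 58.4, 67.2 and 45.6% in ctrl and 46.6, 66.3 and 80.7% in cold. In all 3 genes cold 16 was highest and ctrl 10 and cold 7 were lowest, and the groups overlapped. Fasn, the gene of fatty acid synthase, showed the same order, with 8.40, 12.5 and 6.35% in ctrl and 7.24, 11.1 and 20.2% in cold. Acacb-204 and Pxdn-207 begin inside the gene and run almost to its annotated 3′ end, with 308 and 72 retained-only bases. Cold 16 was the deepest and ctrl 10 the shallowest library, while ctrl 6 and cold 7 were close in depth, at 22969181 and 22903050 reads. The part of depth, of RNA quality or of cell content in these shares was not tested. Pxdn, Fn1 and Acacb, like Ncl, Acadsb and Wnk1, stood among the genes with most member reads at a member share above 50%, which were picked after their values were seen. Acadsb, an acyl-CoA dehydrogenase gene, was steady at 77.8 ± 0.36% in ctrl and 77.1 ± 2.38% in cold (SD, n = 3). Ncl, the nucleolin gene, was at 68.0 ± 1.41 and 68.1 ± 2.12%, and the kinase gene Wnk1 at 81.1 ± 3.03 and 82.0 ± 3.85% (SD, n = 3).

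SR proteins, their kinases and a list of genes known for regulated retained introns had the highest shares of the 11 pathway lists, by reads. These lists overlap. The list of regulated retained introns also holds Clk1 and Clk4 of the kinases and Srsf5, Srsf7, Tra2a and Tra2b of the SR proteins. By diffSpliceDGE, 0 genes of any list were called for a change of share. Each list share is over the reads of only those list genes that have members, 10 of 13 for the SR proteins. The SR proteins, which bind exons and recruit the spliceosome, put 39.1, 37.6 and 36.3% of those reads on 27 members in ctrl. In cold they put 36.4, 38.9 and 36.3% there. The median log2 change over the 10 tested genes was 0.012, beside -0.015 over all parent genes tested. Srsf6-204 held 39.9, 37.5 and 39.0% in ctrl and 32.0, 36.6 and 30.8% in cold, with all cold libraries lower (adjusted p = 1). Srsf2-203 held 30.6 ± 1.2 and 27.9 ± 1.8%, and Srsf11-213 30.9 ± 5.16 and 32.0 ± 2.23% (SD, n = 3). Srsf5-212 keeps intron 6, of 1229 bases (chr12:80947866-80949094, plus strand), where the first stop codon in frame begins at base 7.

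The kinases of SR proteins had 36.9, 34.8 and 39.4% in ctrl and 36.2, 38.6 and 35.9% in cold. Clk1-204, with introns 3 and 4 shown above, held 30.6, 26.2 and 30.8% in ctrl and 30.6, 30.7 and 27.4% in cold. Clk4-213 held 27.3, 26.6 and 26.1% and 29.7, 29.3 and 26.5%, and Clk3-203 26.5 ± 4.4 and 22.3 ± 4.7% (SD, n = 3). The groups overlapped in all 3 kinases, and the total share of all 5 members of Clk1 was 47.4 ± 1.3% in ctrl and 47.9 ± 1.4% in cold. A list of genes known for regulated retained introns stood at 39.2 ± 1.1 and 38.8 ± 1.9%. Within it Ccnl2-205, from the gene of cyclin L2, held 69.1 ± 5.4 and 67.8 ± 4.4% (SD, n = 3).

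Core spliceosome genes were at 14.8, 15.1 and 14.9% in ctrl and 13.6, 14.6 and 14.5% in cold, and every cold library was below every ctrl library. The median change over 43 tested genes was -0.024 on the log2 scale, with 21 above 0 and 22 below. Son-214, from the gene of a splicing cofactor of nuclear speckles, held 17.2, 17.5 and 17.8% in ctrl and 15, 15.1 and 12.1% in cold, without overlap (usage adjusted p = 1). Snrnp70-216, from the gene of the U1 snRNP protein, held 58.5 ± 1.3 and 57.1 ± 1.1%, Ddx39b-204, from a helicase gene of splicing and export, 28.1 ± 2.3 and 27.1 ± 3.4%, and Srrm2-209 13.8 ± 2.4 and 16.1 ± 3.5% (SD, n = 3). Genes of the minor spliceosome, which removes a rare class of introns, had 29.1, 26.7 and 32.3% in ctrl and 25, 28.3 and 28.1% in cold, with Snrnp48-204 at 66.7 ± 3.3 and 67.4 ± 1.8%. The hnRNP and FET proteins had 10.5 ± 0.78 and 10.3 ± 0.79%, and factors of the exon junction and of nonsense-mediated decay 9.69 ± 0.30 and 9.97 ± 0.54% (SD, n = 3).

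**Figure D5:**
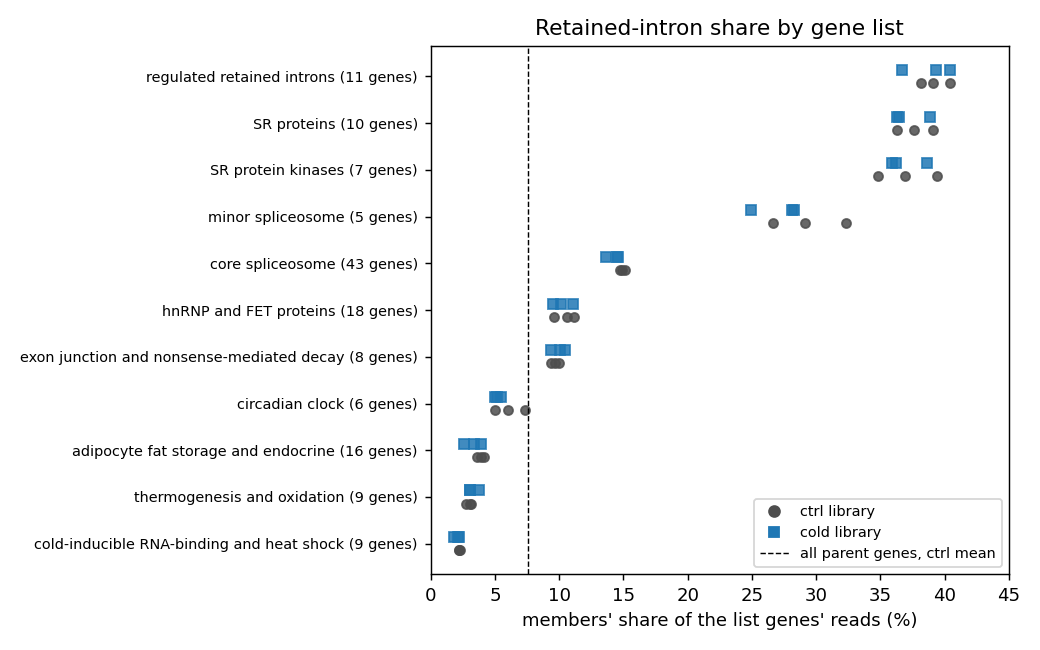
Share of reads on members (percent, x axis) in each library, over those genes of each list that have members. The y axis holds 11 gene lists with the number of those genes. Circles are ctrl, squares are cold, and the dashed line is the ctrl mean over all parent genes (7.54%). The SR proteins, their kinases and the genes of regulated retained introns lie between 34.8 and 40.4%, the other lists of splicing genes lower, and metabolic lists below the line, and the libraries of both groups mix in most lists.

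Outside splicing the pooled list shares were low by reads. Single genes of these lists could be high, such as Acacb of fat storage, with a mean of 63.9% in ctrl. The measure also mattered. In ctrl, members of Fasn held 9.08% by reads and 55.2% by TPM, and those of Hspa4 5.55 and 36.2%. Ucp2 went the other way, with 2.12% by reads and 0.958% by TPM. The order of the lists is given by reads only. Of 14 genes of heat shock and of RNA-binding proteins that cold induces, 9 had members. These 9 put 2.22 ± 0.033% on members in ctrl and 2.06 ± 0.19% in cold (SD, n = 3). In Cirbp, whose product binds RNA and is induced by mild cold, members held 25.4, 23.7 and 25.8% in ctrl and 18.9, 23.0 and 17.8% in cold. All cold libraries were lower (log2 -0.33, SE 0.14, adjusted p = 1 by diffSpliceDGE), and the gene was at 79.2 ± 8.56 and 95.3 ± 4.88 CPM (SD, n = 3). In Rbm3, another cold-inducible RNA-binding protein gene, the share was 5.39, 3.25 and 6.74% in ctrl and 3.41, 4.47 and 4.04% in cold, with overlap. Genes of fat storage and adipocyte hormones had 4.15, 3.60 and 3.90% in ctrl and 2.59, 3.39 and 3.89% in cold. Of the 40 genes in that list 2 rose and 1 fell in level, beside 2.32% and 0.566% of all genes, and 16 have members. The 9 of 25 genes of thermogenesis and oxidation with members had 3.10, 2.72 and 3.15% in ctrl and 3.04, 3.73 and 3.04% in cold. Of 23 genes of that list tested, 2 rose and 1 fell in level. Without ctrl 6, ctrl 10 or cold 12 no gene of either list was called. In the thermogenesis list the raised genes were Dio2 and Ucp3, and the lowered gene was Ehhadh. Dio2, the gene of the deiodinase that activates thyroid hormone, was low in every library. It had 0.330, 0.358 and 0.411 CPM in ctrl and 1.36, 2.71 and 2.79 CPM in cold (edgeR log2 2.64, adjusted p = 0.025). The edgeR log2 difference was 0.48 for Ucp3 (adjusted p = 0.041) and -0.48 for Ehhadh (adjusted p = 0.0496). In Ckb, a creatine kinase gene of that list, members had 5.58, 3.72 and 5.80% in ctrl and 5.10, 8.23 and 7.11% in cold, with overlap. Ucp2, the gene of a mitochondrial carrier, had 2.12 ± 0.94 and 1.79 ± 0.54% and Hadhb, of fatty acid oxidation, 6.04 ± 1.08 and 5.22 ± 1.09% (SD, n = 3).

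The 6 of 19 circadian clock genes with members had 5.00, 6.01 and 7.32% in ctrl and 5.05, 5.46 and 5.18% in cold. Ctrl 10 stood highest. Dbp, a clock output transcription factor gene, had 9.79, 13.2 and 15.4% in ctrl and 10.7, 12.3 and 12.7% in cold. The related gene Tef had 2.59, 2.60 and 3.48% in ctrl and 2.44, 2.27 and 1.64% in cold, and Bhlhe40, which encodes a clock repressor, 3.56, 3.63 and 4.32% and 3.19, 3.31 and 1.99%. In Tef and Bhlhe40 the groups did not overlap and the adjusted p was 1. The hour at which the tissue was taken is in none of the sources used here.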

How the data were processed

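Poly(A) RNA of epididymal fat was sequenced from both fragment ends, 50 nt each, in stranded libraries, per the labels' protocols. The submitters' processing notes name Salmon, cutadapt and bcl2fastq and the build GRCm38; no source used here gives a version or setting. The authors deposited, per library, estimated counts and TPM for 140658 transcripts. Per the file headers these are Salmon estimates, in which reads that fit several transcripts are divided between them; the p-values do not model that uncertainty. The deposited TPM values, which keep no depth, gave only an alternative share.

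Identifiers were joined to GENCODE M21 (GRCm38), 140137 matching. The other 521, with 0.124 to 0.394% of a library, were left out. Members and lists were chosen with earlier results of these data known. Estimated counts were summed per gene, per gene and transcript type, or kept per transcript, and rounded. They were filtered with filterByExpr (minimum count 10, total 15), scaled by TMM and fitted with glmQLFit, robust, in edgeR 4.0.16 (R 4.3.3). Shares were tested with diffSpliceDGE and levels with glmQLFTest, both two-sided and adjusted by the Benjamini-Hochberg method over all features. SE were derived from the F statistic. The overall share was tested by exact permutation (scipy 1.17.1). Alternatives used RLE size factors, no filter, DESeq2 1.42.0, limma 3.58.1, other thresholds and each library left out.

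Named were the 10 most abundant members, genes called for share with at least 300 reads (or, with under 5 called, the 8 of smallest p per direction), called transcripts and the 4 most abundant members per list. Others are said to be picked after their values were seen. Library pairs within a group differed by more than sampling noise (chi-square divided by its degrees of freedom 13.7 to 38.0), and each library was counted as 1 replicate. Floors cover counting error only.

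Each fit was tested on simulated counts with known changes. At the spread estimated from these libraries, most calls of the transcript usage fit were false, the usage and transcript level fits missed nearly all known changes and the share fit missed most of them, while the gene level fit found most.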

Additional observations from a re-analysis of the deposited data

How the results depend on the processing

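Members with few reads limit the tests, and every share rests on how reads were divided among overlapping transcripts. The difference in overall share changed sign when members were limited to those at least 50% retained-only, a limit chosen after seeing the data (0.011 percentage points), and without ctrl 5 and cold 7 together (0.37 points), and leaving out single libraries gave -0.25 to 0.28 points. For the share per gene, 0 of 1952 parent genes were called in either direction when classes needed 10% of the gene's reads, beside 3 of all 7027 classes. With members at least 50% retained-only, 0 of 2449 were called, beside 9 of 17216. Without ctrl 5 and cold 7 together, 1 of 4994 was called higher and 0 lower, beside 12 and 4 of 16597. Leaving out single libraries gave 1 to 3 higher and 1 to 2 lower, beside 6 to 14 and 6 to 13 of all classes. For transcript usage, calls of higher and lower were 8 and 2 of 10863 members with no count filter, beside 100 and 58 of all 76970 transcripts. They were 0 and 0 with limma, beside 1 and 0 of 35158. At a minimum share of 10% they were 1 and 0 of 1833, beside 14 and 7 of 15469. Without ctrl 5 and cold 7 together they were 15 and 8 of 8706, beside 176 and 104 of 36496. Leaving out single libraries gave 6 to 10 and 2 to 6, beside 83 to 123 and 57 to 74 of all transcripts. For transcript level DESeq2 called 53 members higher and 15 lower, beside 866 and 296 of all 42984 transcripts. For parent genes it called 234 higher and 119 lower of 5822, beside 1036 and 304 of all 17852 genes. No count filter gave 86 lower of 5850, beside 228 of 34880. Leaving out ctrl 5 and cold 7 together gave 230 and 22 of 5825, beside 1145 and 85 of 18154. Leaving out single libraries gave 0 to 197 higher and 0 to 56 lower, beside 0 to 929 and 0 to 161 of all genes. The parent gene calls were 0 in both directions without ctrl 6, ctrl 10 or cold 12, and the cause was not tested. Leaving out ctrl 5 and cold 7 together gave Thoc3 an adjusted p of 0.079 and Slc35a5 one of 0.065. RLE size factors gave the same numbers of called members in the share and usage tests. No paired analysis was possible because the mouse numbers differ between the groups and no label gives a shared batch.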

Other observations

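A few of the kept introns carry the 5′ sequence of the minor class, which is removed by the minor spliceosome. ATATCCTT began 9 and GTATCCTT 21 of the 6660 distinct introns kept whole (0.450% together, read at the intron start on the transcribed strand). The most abundant of these members are shown with 10 exon bases in lower case, the first 8 intron bases in capitals and 12 more intron bases, on GRCm38. The introns are chr4:124940546-124942352 (9930104L06Rik-205, plus strand), chr15:89132981-89133078 (Mapk12-204, minus strand), chr12:16820385-16822092 (E2f6-202, plus strand), chr7:25664449-25665420 (Exosc5-202, plus strand) and chr15:89145176-89145374 (Mapk11-204, minus strand). A sequence match is a description of the letters and not of the machinery used.
9930104L06Rik-205: atggaagctcATATCCTTcgagtgcttcct
Mapk12-204: ggcaatgaccGTATCCTTctatgtagagca
E2f6-202: aaaatgaaagATATCCTTccatcagtacct
Exosc5-202: cgctggctctGTATCCTTtcccagccctct
Mapk11-204: ggaaacgactGTATCCTTggggagcagggt

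The predicted gene 9930104L06Rik had 43.4, 38.5 and 38.3% of its reads on its member in ctrl 5, ctrl 6 and ctrl 10 and 27.9, 31.8 and 29.7% in cold 7, cold 12 and cold 16, without overlap (unadjusted p = 0.46, adjusted p = 1 by diffSpliceDGE). E2f6-202, from the gene of a transcriptional repressor, had 10.9, 14.3 and 11.4% in ctrl and 19.9, 15.6 and 16.5% in cold, again without overlap and in the other direction (adjusted p = 1). Exosc5-202, from a gene of the RNA exosome, had 10.1, 12.6 and 12.2% in ctrl and 14, 13.6 and 15.3% in cold, all cold libraries higher (adjusted p = 1). The kinase members overlapped between groups, with Mapk12-204 at 22.3 ± 0.32 and 19.7 ± 3.3% and Mapk11-204 at 28.8 ± 7.8 and 27.0 ± 4.1% (SD, n = 3). The members of this class thus showed values in both directions, and none passed the adjustment among those tested. These members were picked after their values were seen.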
